A study of Mus musculus with 8 samples.

Results

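Glutathione synthesis and recycling is followed here through 10 genes chosen by name: Gclc, Gclm, Gss, Slc7a11, Gsr, Glrx, Ggt1, Chac1, Ggct and Oplah. All 10 have a probe on the array, and 9 of them gave a signal that could be tested among 19593 genes and unnamed transcripts. Kidneys were taken at 8 weeks from a NEKO group and a control group of 4 mice each, with 2 females and 2 males in each group and 1 array per mouse. All 8 mice carried Nrf2 Flox/Flox on a mixed background of 129Sv/J and C57BL/6J. NEKO mice were Keap1-/- with K5-Cre, a Cre driven by the Keratin5 promoter that removes Nrf2 in squamous epithelium only. Controls were Keap1+/- littermates, of which 3 carried K5-Cre (K1Cre, 1 female and 2 males) and 1 did not (K1, a female), so that the heterozygous loss of Keap1 is shared by every control. The comparison asks what the complete loss of Keap1, the adaptor that sends the transcription factor Nrf2 for degradation, does to the transcripts of this pathway in whole kidney.

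Glutathione is a tripeptide of glutamate, cysteine and glycine that cells use to reduce peroxides and to conjugate electrophiles. The cystine-glutamate exchanger encoded by Slc7a11 brings in the cystine from which cysteine is made, glutamate-cysteine ligase (a catalytic subunit from Gclc and a modifier subunit from Gclm) joins glutamate to cysteine in the rate-limiting step, and glutathione synthetase (Gss) adds glycine. Glutathione reductase (Gsr) returns the oxidised form to the reduced one with NADPH. Kidney is known for its turnover of glutathione, because the brush border of the proximal tubule is rich in gamma-glutamyltransferase (Ggt1), which splits filtered glutathione. Gclc, Gclm, Gsr and Slc7a11 are known as targets of Nrf2, and Slc7a11 and Chac1 as targets of ATF4, a factor of the amino acid and endoplasmic reticulum stress responses.

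The arrays were 1-colour Agilent 4x44K mouse arrays, on which the share of probes well above background ran from 61.8% to 65.7% and no spot was saturated. A level is given throughout as the log2 processed signal from which the 75th percentile of that array was subtracted, and a change is the NEKO level minus the control level on that log2 scale. Keap1 itself was at 1.84 ± 0.07 (SD, n = 4) in controls and 0.20 ± 0.17 (SD, n = 4) in NEKO kidneys, a fall of 1.63 that passed the test (limma, adjusted p = 0.0046). All females shared 1 slide and all males another, with both genotypes on each, so that a difference between the sexes and one between the slides cannot be told apart. Of the 8 proximal tubule markers checked, 7 could be tested and all 7 were well above background on every array. In whole-kidney RNA, fewer cells of a type and less RNA per cell cannot be told apart.

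Promoter sequences were available for 7 of the 10 genes, as windows of 250 bases upstream of each annotated start (RefSeq, GRCm38.p6). They were searched on both strands for TGACNNNGC, the core of the antioxidant response element to which Nrf2 binds with small Maf proteins, and for TGATGNAA, the core of the C/EBP-ATF element known from ATF4 targets. The first of these shares its opening letters with AP-1 and cAMP response sites, which it can overlap. Stretches of 80 bases are shown for Gclm, Ggct, Slc7a11 and Chac1, the members in which every window held a match. Capitals mark the matches, and each stretch reads 5′ to 3′ along the strand of the gene.
Gclm, chr3:122245387-122245466, plus strand: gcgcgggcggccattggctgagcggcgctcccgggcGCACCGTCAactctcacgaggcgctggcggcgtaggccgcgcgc
Ggct, chr6:54992998-54993077, minus strand: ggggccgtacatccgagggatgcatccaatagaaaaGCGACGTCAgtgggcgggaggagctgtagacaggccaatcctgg
Slc7a11, chr3:50443627-50443706, minus strand: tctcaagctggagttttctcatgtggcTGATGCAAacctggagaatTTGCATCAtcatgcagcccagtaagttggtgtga
Chac1, chr2:119351013-119351092, plus strand: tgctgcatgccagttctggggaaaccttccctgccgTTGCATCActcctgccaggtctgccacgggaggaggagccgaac
In Gclm and Ggct the antioxidant core stood on the opposite strand, starting 134 and 174 bases before the start site. In Slc7a11 the C/EBP-ATF core occurred on both strands, starting 66 and 47 bases before the start site, and in Chac1 it occurred once, at 193 bases. Ggt1 has 4 annotated windows, and 2 of them held the antioxidant core. Gss and Glrx held neither. Over all 32851 windows, 10.2% held the antioxidant core and 3.45% the C/EBP-ATF core, and a match describes these letters without showing that a factor binds there.

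None of the 9 genes tested was called at an adjusted p under 0.05 in limma, where 0.225% of everything tested was called. At an unadjusted p under 0.05 limma gave 6 of the 9 (Gclc, Gclm, Gss, Gsr, Oplah and Glrx), all higher in NEKO kidneys, against 7.37% of everything tested that was higher at that level. No member was lower at that level, and the median change of the 9 was 0.25, beside -0.03 over everything tested. The 6 genes encode both subunits of the rate-limiting enzyme, the final synthetic step, the reductase, a glutaredoxin and 5-oxoprolinase, and the other 3 tested were Ggt1, Chac1 and Ggct. In 1 of the 9, Gsr, the groups did not overlap, with all NEKO mice higher, while over everything tested 9.27% of features were separated in either direction and 3.88% with NEKO higher.

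**Figure D1:**
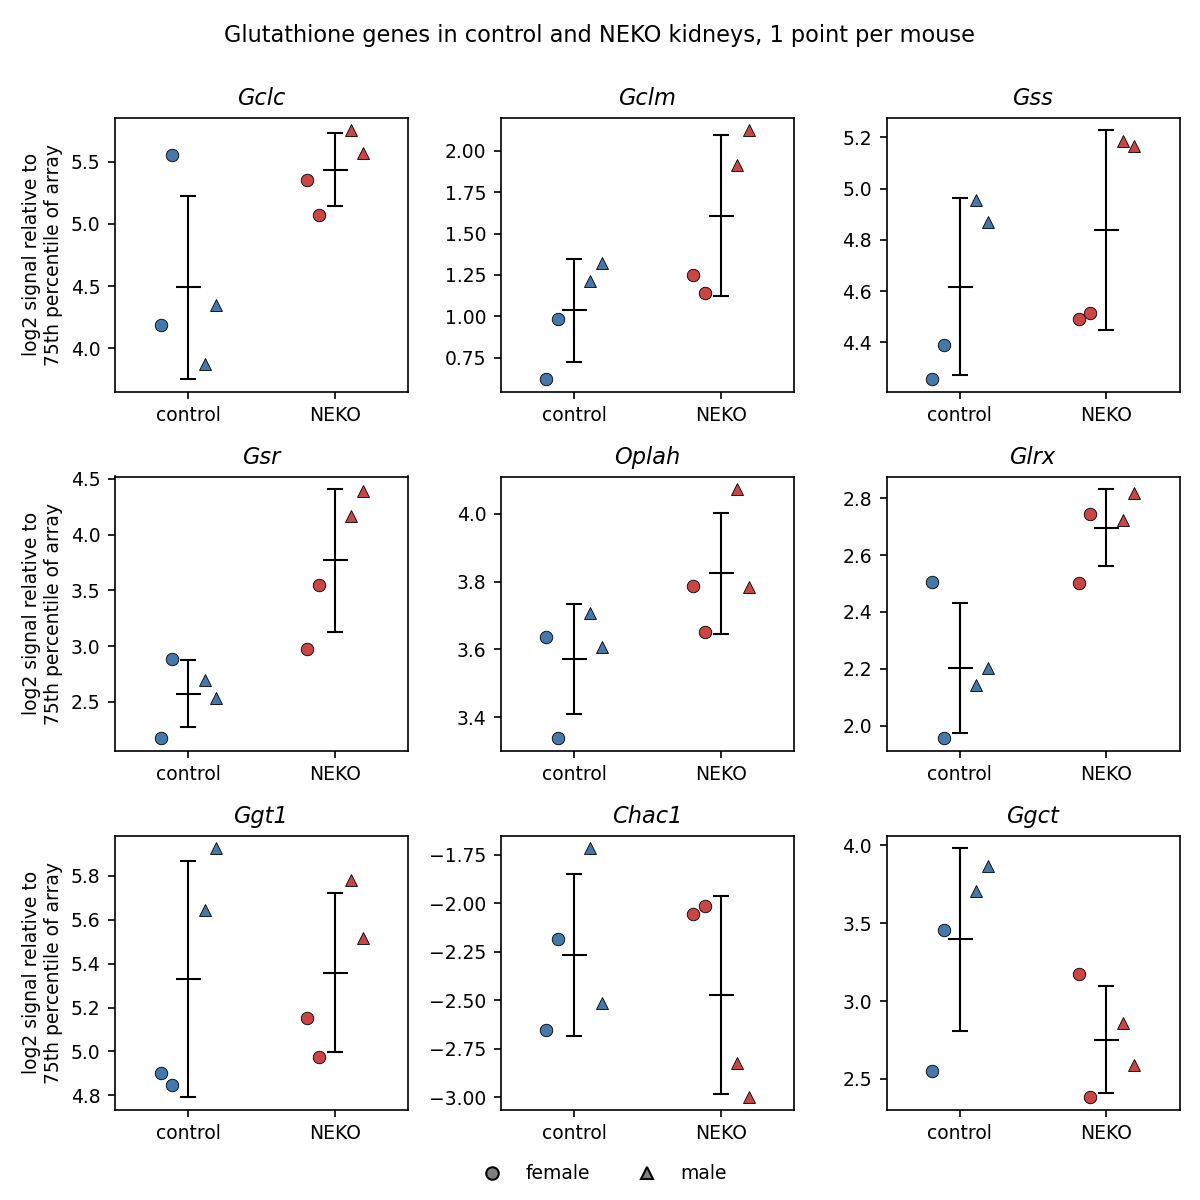
Level of the 9 tested glutathione genes in each mouse, as log2 signal less the array's 75th percentile (vertical axis, scaled to each gene), with circles for females and triangles for males. The bar marks the mean and SD of 4 mice. The groups separate completely for Gsr, where the lowest NEKO mouse is at 2.97 and the highest control at 2.88, and overlap for the others.

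Gclc (NM_010295) encodes the catalytic subunit of glutamate-cysteine ligase. Its level was 4.18 and 5.55 in the control females, 4.35 and 3.87 in the control males, 5.35 and 5.07 in the NEKO females and 5.75 and 5.57 in the NEKO males. All 4 NEKO mice lay above 3 of the controls, but the K1Cre control female (replicate 8) reached the NEKO range, so that the groups overlapped. The mean was 4.49 ± 0.74 (SD, n = 4) in controls and 5.44 ± 0.30 (SD, n = 4) in NEKO kidneys. The change of 0.95 (standard error 0.37, 95% interval 0.08 to 1.81), or 1.93-fold, was not called (limma, adjusted p = 0.25). Without that control female the change was 1.34 and still not called (adjusted p = 0.075, in a range of 0.075 to 0.48 over the alternatives).

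Gclm (NM_008129), the modifier subunit that raises the activity of the ligase, showed a smaller change with less spread. Its level was 0.62 and 0.98 in the control females and 1.14 and 1.25 in the NEKO females. Among the males it was 1.32 and 1.22 in controls and 1.92 and 2.13 in NEKO mice. Within each sex both NEKO mice lay above both controls, while over all mice neither NEKO female lay above both control males. The change was 0.57 (standard error 0.12, 95% interval 0.28 to 0.86), or 1.49-fold (limma, adjusted p = 0.11).

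Gss (NM_008180), which completes glutathione, had the smallest change among the synthetic enzymes. Its level was 4.26 and 4.39 in the control females, 4.49 and 4.51 in the NEKO females, 4.87 and 4.96 in the control males and 5.19 and 5.17 in the NEKO males. Males of both genotypes lay above females of both genotypes, and within each sex the NEKO pair lay above the control pair. The change between genotypes was 0.22 (standard error 0.07, 95% interval 0.06 to 0.38), or 1.17-fold (limma, adjusted p = 0.19). Males exceeded females by 0.63 in the same fit, which was called (adjusted p = 0.030 from limma for the sex term, where 0.786% of everything tested was called).

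Slc7a11 (NM_011990), the cystine carrier, was near the lower limit of the array and did not reach the number of detections required for the test. On its brightest probe no control array and neither NEKO female was well above background, at -7.41 and -7.65 in the control females, -7.16 and -7.35 in the control males, and -6.66 and -6.03 in the NEKO females. Both NEKO males were well above background, at -2.32 and -1.89. A second probe gave the same split of calls, at -3.35 and -3.32 in the NEKO males and between -7.44 and -5.57 in the other 6 mice. The third probe was detected in no kidney. Because the controls were not detected, each control array entered as a floor. That floor was the dimmest signal that any detected probe had on the array or, if greater, what the Slc7a11 probe itself gave. Against the mean of these floors, the mean of all NEKO mice was 2.31-fold on the brightest probe and 1.49-fold on the second. These values are not lower bounds, because that NEKO mean holds background readings of the undetected females. For the males alone, a split chosen after the values were seen, lower bounds can be given, at least 9.17-fold and 3.91-fold. Fitted without the filter on dim probes, the log2 difference was 3.17 (standard error 0.78, adjusted p = 0.22 from limma). That value rests on background in the controls and the NEKO females and is no measure of size. The C/EBP-ATF letters printed above lie in the promoter of this gene.

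**Figure D2:**
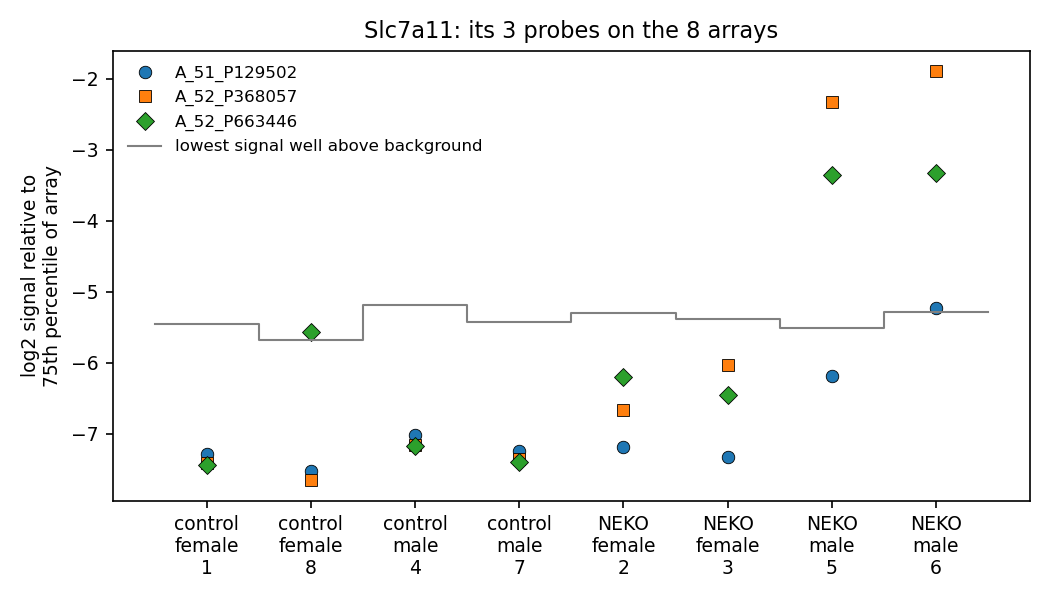
Signal of the 3 Slc7a11 probes on each array (log2, less the array's 75th percentile), with mice in order of group and sex and their replicate number below. The grey line is the dimmest signal of any detected probe on that array, and whether a probe counts as detected is decided by its own spot. Detections came only from 2 probes in the NEKO males, between -3.35 and -1.89.

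Gsr (NM_010344), the NADPH-dependent reductase, had the largest fitted change of the 9 tested genes. Its level was 2.17 and 2.88 in the control females and 2.97 and 3.55 in the NEKO females. In the males it was 2.54 and 2.70 in controls and 4.16 and 4.39 in NEKO mice. No NEKO level was as low as any control level, although the nearest females of the groups, at 2.97 and 2.88, were close. The mean was 2.57 ± 0.30 (SD, n = 4) in controls and 3.77 ± 0.64 (SD, n = 4) in NEKO kidneys, a change of 1.20 (standard error 0.26, 95% interval 0.59 to 1.81), or 2.29-fold. It was not called (limma, adjusted p = 0.11). The other 2 probes of Gsr, which carry the same gene name, gave changes of 1.36 (standard error 0.31) and 1.19 (standard error 0.27) and separated the groups in the same way. Gsr was the only member called under any adjusted test, when an interaction with sex was fitted and the mean of both sexes' effects was tested (adjusted p = 0.042, in a range of 0.042 to 0.40 over the alternatives), a setting under which 2.63% of everything tested was called and 1.26% was called higher.

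Glrx (NM_053108) encodes glutaredoxin, which uses glutathione to reduce mixed disulphides on proteins. Its level was 2.51 and 1.96 in the control females, 2.20 and 2.14 in the control males, 2.50 and 2.74 in the NEKO females and 2.72 and 2.82 in the NEKO males. The groups touched at a single pair, the K1 control female at 2.51 and a NEKO female at 2.50. The change was 0.49 (standard error 0.14, 95% interval 0.17 to 0.81), or 1.41-fold (limma, adjusted p = 0.16).

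**Figure D3:**
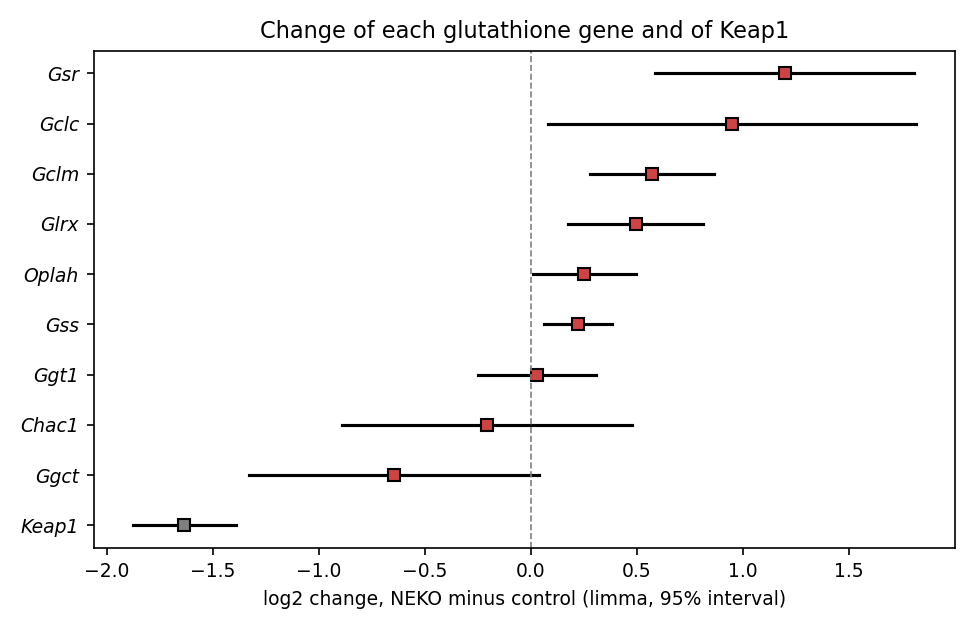
Fitted change of each tested glutathione gene and, in grey, of Keap1 (NEKO minus control, log2 scale, limma with sex as a term) with its 95% interval. The intervals of Gsr, Gclc, Gclm, Glrx, Oplah and Gss lie above 0 and those of Ggt1, Chac1 and Ggct include it, but only Keap1, at -1.63, passed the adjusted threshold.

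Among the genes of breakdown, Ggt1 (NM_008116) showed no change that could be resolved. Its level was 4.90 and 4.85 in the control females, 5.15 and 4.98 in the NEKO females, 5.93 and 5.64 in the control males and 5.78 and 5.52 in the NEKO males. The order followed sex and not genotype, since all 4 males lay above all 4 females. The change between genotypes was 0.03 (standard error 0.12, 95% interval -0.25 to 0.31; limma, adjusted p = 0.92), and the excess of males over females was 0.75 (adjusted p = 0.048 from limma for the sex term).

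Ggct (NM_026637) encodes a cytosolic gamma-glutamylcyclotransferase, which releases 5-oxoproline from gamma-glutamyl peptides, and had the largest negative change. Its level was 2.55 and 3.46 in the control females, 3.18 and 2.38 in the NEKO females, 3.87 and 3.70 in the control males and 2.86 and 2.59 in the NEKO males. The male groups were apart, and the female groups overlapped through the K1 control female at 2.55. The change was -0.64 (standard error 0.29, 95% interval -1.33 to 0.04; limma, adjusted p = 0.30). The letters of the antioxidant core occurred in windows of 3 members, Gclm (change 0.57), Ggt1 (0.03) and Ggct (-0.64). Their part in these changes was not tested.

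Chac1 (NM_026929), a cyclotransferase that degrades glutathione itself inside the cell, was well above background in all 8 kidneys. Its level was -2.65 and -2.18 in the control females and -2.06 and -2.01 in the NEKO females, so that both NEKO females lay above both controls. In the males it was -2.51 and -1.72 in controls and -2.82 and -3.00 in NEKO mice, so that both NEKO males lay below both controls. The sexes were separated in opposite directions in this way for 5.97% of everything tested. Over all mice the change was -0.21 (standard error 0.29, 95% interval -0.89 to 0.48; limma, adjusted p = 0.72).

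Oplah (NM_153122) encodes 5-oxoprolinase, which returns 5-oxoproline to glutamate and closes the cycle. Its level was 3.64 and 3.34 in the control females, 3.79 and 3.65 in the NEKO females, 3.61 and 3.71 in the control males and 4.07 and 3.78 in the NEKO males. Within each sex the NEKO pair lay above the control pair, in the females narrowly, at 3.65 against 3.64 for the nearest mice. The change was 0.25 (standard error 0.10, 95% interval 0.01 to 0.50), or 1.19-fold (limma, adjusted p = 0.27).

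The sexes were then taken apart, since each holds 2 NEKO and 2 control mice. In 4 members, Gclm, Gss, Gsr and Oplah, the NEKO pair lay above the control pair in both sexes, which was so for 7.03% of everything tested. The NEKO and control pairs were apart in 6 of 9 members in females and 8 of 9 in males, beside 42.5% and 52.6% of everything tested. In 7 of the 9 the change had the same sign in both sexes and was larger in males, beside 37% of everything tested. For Gsr the change was 0.73 (standard error 0.29) in females and 1.66 in males. For Gclc it was 0.34 (standard error 0.43) and 1.55, for Gclm 0.39 (standard error 0.16) and 0.75, and for Ggct -0.23 (standard error 0.37) and -1.06, with the same standard error in both sexes. None of these differences between the sexes was called for any member by the interaction test in limma, which called 0.0153% of everything tested. The adjusted p of the interaction was 0.50 for Gsr and 0.57 for Gclc. At an unadjusted p under 0.05 the interaction gave 1 member, Chac1, where 10.5% of everything tested passed that level.

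**Figure D4:**
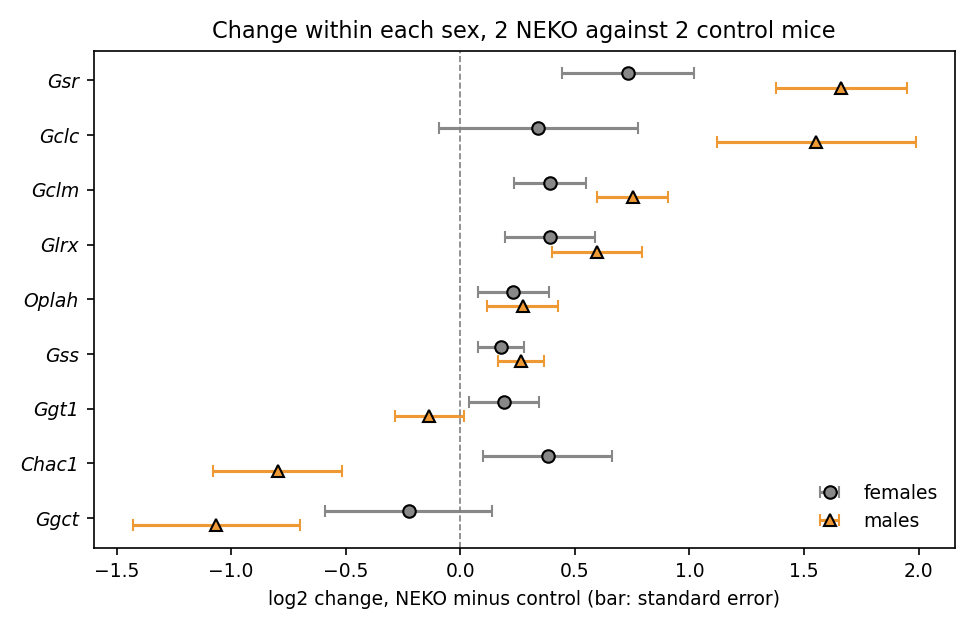
Change within each sex (NEKO minus control, log2 scale) for the 9 tested members, with circles for females, triangles for males and bars for the standard error of 2 against 2 mice in the model with an interaction. Gsr, Gclc and Gclm lie further to the right in males than in females, at 1.66 against 0.73 for Gsr, and Chac1 lies on opposite sides of 0, at 0.38 in females and -0.80 in males.

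Markers of other cells also differed between the NEKO males and the other mice. The summed signal of the 2 neutrophil markers that could be tested (S100a8 and S100a9, of 4 listed), as a linear signal relative to the 75th percentile, was between 0.17 and 0.49 in controls, between 0.31 and 0.51 in NEKO females and between 1.55 and 6.58 in NEKO males. S100a8 was well above background in 1 of 4 control kidneys and 3 of 4 NEKO kidneys. For the 4 urothelial markers the sum was between 0.99 and 2.40 in controls, between 1.53 and 1.82 in NEKO females and between 4.32 and 4.55 in NEKO males. Upk1a went against that sum, with a difference of -1.22 in females and -0.20 in males and no overlap between the groups, while Upk1b, Upk2 and Upk3a had differences of 2.52, 3.24 and 2.12 in males. For the 4 T and B cell markers tested, of 6 listed, the sum was between 0.18 and 0.25 in controls, 0.17 and 0.20 in NEKO females and 0.31 and 0.37 in NEKO males. Cd3e had no value in control replicate 4, so the lowest control sum, 0.18, lacks that marker. These sums moved with the detection of Slc7a11 and with the larger changes of Gclc and Gsr in males, and their part in those results was not tested. The sum of the 4 intercalated cell markers was lower in NEKO kidneys, between 35.3 and 47.5 in controls, between 22.0 and 22.9 in NEKO females and between 6.03 and 12.6 in NEKO males. All 4 had a lower NEKO mean, but Slc4a1 went against the sum in 1 NEKO male. It was at 2.34 and -0.86 in the NEKO males, 1.34 and 1.49 in the NEKO females and 1.73 to 2.17 in controls. The 4 thick ascending limb markers summed to between 297.0 and 351.1 in controls, 300.0 and 316.8 in NEKO females and 198.4 and 228.1 in NEKO males. Umod was the brightest of these 4 and weighed most in the sum. Cldn16 in the NEKO males, at -1.01 and -1.09, lay within the control range of -1.15 to -0.22. The 3 distal convoluted tubule markers summed to between 6.91 and 10.4 in controls, 7.05 and 10.2 in NEKO females and 3.66 and 4.26 in NEKO males, and the part of these 3 cell types was likewise not tested. The sums of the 6 macrophage markers tested overlapped between the groups, from 4.67 to 5.94 in controls and from 3.99 to 6.99 in NEKO kidneys. Within that sum the differences in males ran from -0.67 (Csf1r) to 2.67 (Lyz2), while in females Csf1r was at 0.29 and Lyz2 at 0.08. Lyz2 lay at -1.79 and -0.75 in the NEKO males and between -4.28 and -3.05 in the other mice, and its part was not tested. The 7 proximal tubule markers, of the cells in which Ggt1 is known to be abundant, gave sums from 500.3 to 649.6 in controls and from 557.5 to 641.8 in NEKO kidneys. Among them Slc5a2 was lower in NEKO kidneys with no overlap (-0.43), and Slc22a6 was higher (0.34). Both had an unadjusted p under 0.05 in limma, and neither was called.

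The remainder of the pathway was read from 35 further genes in 3 lists, of which 34 could be tested and none was called. At an unadjusted p under 0.05 limma gave 4 of the 34, all higher in NEKO kidneys, where 7.37% of everything tested was higher and 10.6% lower at that level. The median change was -0.0027, and 1 of the 34 was separated between the groups, beside 9.27% of everything tested. In the list of cysteine and precursor supply (15 of 15 tested), which holds cystine carriers of the brush border, the transsulphuration enzymes and the enzymes of glutamate supply, 1 gene was higher at that level, no gene was separated between the groups and the median change was 0.00037. In the list of other breakdown and mercapturate genes (10 of 11 tested) 2 were higher at that level, none was separated and the median was 0.06. In the list of other glutaredoxins and glutathione-dependent enzymes (9 of 9 tested) 1 was higher at that level and the median was -0.01. The separated gene of this list was Esd, an esterase that hydrolyses S-formylglutathione. Its level was 6.32 and 6.10 in the control females, 6.10 and 6.26 in the control males, 6.42 and 6.43 in the NEKO females and 6.72 and 6.99 in the NEKO males, so that the groups did not overlap. The NEKO mean exceeded the control mean by 0.44 (standard error 0.13), which limma did not call (adjusted p = 0.17).

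The named genes with the pattern most like that of Gclc and Gclm over the 8 arrays were found by the root mean square difference between profiles, each centred on its own mean, among 13518 genes. For Gclc they were Adamtsl1 (0.25), Oog1 (0.29), Lum (0.29), Negr1 (0.30) and Plaur (0.32). For Gclm they were Sema3c (0.11), Tmtc4 (0.14), Mfsd4b5 (0.15), Aoah (0.15) and B3galt5 (0.16). No other member of the pathway lists was among these 5 for either gene, and none of the 10 genes named was called between the genotypes.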

How the data were processed

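Kidney RNA of 4 NEKO and 4 control mice was hybridised to 1 array each. The authors deposited Agilent Feature Extraction output, in which the processed signal is an intensity after background subtraction and spatial detrending that is not normalized between arrays, beside raw median intensities of spot and local background. A second table the authors deposited has log2 values scaled to each array's 75th percentile with the median of every probe removed, and 100% of them came within 0.01 of the same calculation made here.

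Spots marked as outliers (73 to 172 of 43379 per array) were left out, spots of 1 probe averaged, and each array's 75th percentile was subtracted from its log2 processed signal. Probes had to have a value on at least 6 arrays and be well above background on at least 4, and among the kept probes of a gene the one with the highest mean was used. Transcript accessions were matched to RefSeq genes (26690 of 41174 probes), giving 13570 named genes and 6023 unnamed transcripts. NEKO and control mice were compared in limma 3.58.1 under R 4.3.3, with sex (also the slide) as a term and Benjamini-Hochberg adjustment over all 19593; the threshold for a call was an adjusted p of 0.05. The paper's methods name only an unpaired test that allows unequal variances, called the methods' test here and used as an alternative. On simulated data for this comparison (19514 genes, 5 runs), limma called 69% of the genes changed 2-fold and 90.4% of those changed 4-fold, with 5.57% false calls. The changed genes were drawn at random, with normal noise of the same spread in both groups. The shares are therefore averages over genes and give no rate for a single member. The number of arrays limits the precision.

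The members, lists, rules and alternatives were chosen with earlier results of these data known. The named genes are the 10 members, Keap1, genes of the pathway lists that were called or separated, and the 5 closest in pattern to Gclc and to Gclm. Alternatives were another background correction (normexp, offset 50, on the median signal), quantile normalization, other filters, the mean of the probes of a gene, other variance models and tests, the deposited matrix, and leaving out each mouse. The array design is annotated on mm9, so coordinates are given only for RefSeq promoters on GRCm38.p6.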

Additional observations from a re-analysis of the deposited data

Results flagged for a closer look

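Chac1 was flagged because both NEKO females lay above both control females while both NEKO males lay below both control males. The change was 0.38 (standard error 0.28) in females and -0.80 in males, a difference between males and females of -1.18 (standard error 0.40). The interaction test over everything tested did not call it (limma, adjusted p = 0.36). Such opposite separation of the sexes was seen in 5.97% of everything tested. No mouse stood far from the rest of its group in any of the 20 groups of 4 values looked at, judged by how much of the group's range the gap next to it took up.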

How the results depend on the processing

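No paired analysis was possible because the sample labels name no litter or pair, and the replicate numbers only count the mice. Of the 9 members, none crossed the adjusted threshold under any alternative except Gsr, called when the effect was averaged over the sexes (1 member called in place of 0; change 1.20). The methods' test without adjustment gave 2 members (Gsr and Glrx) and 3 other pathway genes in place of 0, where it gave 943 higher and 1269 lower of all 19593 tested. With adjustment it gave 0 higher and 1 lower in all, no member among them, and did not call Keap1, at the same change of -1.63 (adjusted p = 0.14). The count of 6 members at an unadjusted p under 0.05, for which alternatives were added after the data were seen, was 3 with no sex term, 2 under the methods' test and 4 to 6 with each mouse left out. The count of 1 member separated between the groups was 2 under normexp and with the deposited matrix, and 3 under quantile normalization. With no filter on dim probes it was also 2, because Slc7a11 entered. Its brightest probe was not detected in the controls or the NEKO females. With each mouse left out the count was 1 to 3. It was 3 without control replicate 1 and 2 without NEKO replicate 2 or 3 or control replicate 7 or 8. Leaving out a mouse can only keep or add separated genes, so that this count could not fall below 1. No share over everything tested is given for these settings. With each mouse left out in turn Ggt1 ran from -0.040 to 0.12, below 0 without NEKO replicate 2 (-0.040) and control replicate 8 (-0.016), and Chac1 from -0.42 to 0.070, above 0 without control replicate 7. The sign of the other 7 changes held under all 20 alternatives fitted. The count of everything called, 19 higher and 25 lower, was 68 and 114 under normexp, 40 and 53 for a robust variance trend, 77 and 145 when arrays were weighted, 14 and 16 with sex left out and 247 and 268 averaged over the sexes. The causes were not tested.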

Other observations

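A reference list of 10 Nrf2 targets outside these members was read with the same fit. All 10 could be tested, 1 was called higher, 8 were higher at an unadjusted p under 0.05 in limma and 6 were separated between the groups. The median change was 0.80 (0.50 in females and 1.16 in males), beside 0.25 for the 9 members tested. Among those members the known Nrf2 targets Gclc, Gclm and Gsr changed by 0.95, 0.57 and 1.20. Of 10 ATF4 targets, all tested, none was called, 2 were higher and 2 lower at an unadjusted p under 0.05, 2 were separated and the median change was 0.20. Over everything tested, 0.097% was called higher. At an unadjusted p under 0.05 in limma 7.37% was higher and 10.6% lower. The groups were separated for 9.27% in either direction and for 3.88% with NEKO higher. The members and these lists were chosen with results of these data known, so the counts are descriptions.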
